A study of Homo sapiens with 6 samples.

Results

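Messenger RNA of 31 genes that make, sense, move, store and export cholesterol was followed in ACHN cells, a human renal carcinoma line that the labels assign to the clear cell type, with and without knockdown of DNAJC2. The genes were picked by name from a table of 20532 genes, and each name matched 1 row. Knockdown cells, shDNAJC2, carried a lentiviral hairpin against DNAJC2 (3 libraries). Their controls, shCtrl, carried a negative control hairpin delivered the same way (3 libraries). The series asked about metabolism and ferroptosis after loss of DNAJC2. It described each group as a stable line with 3 biological replicates, and nothing says that these came from separate transductions, so p-values measure the spread between these libraries.

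Cholesterol synthesis starts from acetyl-CoA and runs through mevalonate to farnesyl diphosphate, then through squalene and lanosterol to cholesterol. When sterols in the endoplasmic reticulum run low, the escort protein SCAP carries the transcription factor SREBP2 to the Golgi, where it is cut and released to turn on genes of synthesis and uptake, while the INSIG proteins hold the complex back when sterols are plentiful. Oxysterols, made as cholesterol accumulates, activate the nuclear receptors LXRalpha and LXRbeta, which turn on export pumps. In clear cell renal carcinoma stored cholesterol esters are a known feature of the clear cytoplasm.

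Here the SREBP2 arm means the 17 synthesis enzymes with INSIG1 and STARD4, and the LXR arm means ABCA1, ABCG1 and MYLIP, which are direct LXR target genes. The other 9 genes are the regulators, the receptors and the carriers described below. All 31 genes passed the filter on low counts. The level of a gene is given as CPM, a gene's share of the reads counted, scaled for depth with TMM factors, in the order of libraries 1, 2 and 3 of each group. Log2 fold changes are of shDNAJC2 over shCtrl.

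Starts of 27 of the 31 genes were listed in RefSeq (GRCh38.p14), and the 250 bases before each start were searched on both strands, with overlaps allowed, for 3 short motifs that occur in promoters of sterol genes. The box bound by NF-Y, a factor that works beside SREBP2, was searched as CCAAT and was present before 14 of 16 SREBP2-arm genes and 4 of 11 other genes of the set. It was present in 32% of all 35114 listed promoters and in 32.9% of those of genes tested here. The Sp1 box, GGGCGG, was present before 15 of the 16 and 10 of the 11, against 42.6% of all promoters and 62.3% of those of tested genes. An SRE-type core, CACNCCAC, was found before 3 of the 27 genes (INSIG1, SREBF2 and ABCA1), against 4.87% of all promoters.

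The sequences of 7 promoters are shown because these genes span what was seen in the SREBP2 system. HMGCS1, STARD4, TM7SF2 and HSD17B7 were among the genes with the larger differences, and IDI1 and INSIG1 had smaller ones. INSIG2 differed in the other direction and had no CCAAT in this window. In the SREBP2 arm PMVK (−0.020) and CYP51A1 (−0.0059) also lacked CCAAT, and both values turned positive under other settings. Outside the arm it was absent before SREBF1, SCAP, NPC1 and NR1H3, with negative fitted values, and ABCA1 and NR1H2, with positive ones. SREBF2, with a negative value, and NPC2, SOAT1 and MYLIP, with positive ones, had it. Whether the box goes with direction was not tested. Each printed sequence runs 5′ to 3′ on the strand of its gene and ends at the base before the start. Capitals mark matches to the 3 motifs on either strand. HMGCS1 lies at chr5:43313413-43313662 (minus strand), STARD4 at chr5:111512536-111512785 (minus strand), TM7SF2 at chr11:65111622-65111871 (plus strand), HSD17B7 at chr1:162790452-162790701 (plus strand), IDI1 at chr10:1049120-1049369 (minus strand), INSIG1 at chr7:155297628-155297877 (plus strand) and INSIG2 at chr2:118088221-118088470 (plus strand). A match is a description of these letters and not evidence of binding.
HMGCS1: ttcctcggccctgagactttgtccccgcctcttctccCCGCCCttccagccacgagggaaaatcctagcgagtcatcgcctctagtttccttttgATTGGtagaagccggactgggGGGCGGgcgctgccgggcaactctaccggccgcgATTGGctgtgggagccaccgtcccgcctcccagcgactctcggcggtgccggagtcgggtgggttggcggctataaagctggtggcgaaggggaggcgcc
STARD4: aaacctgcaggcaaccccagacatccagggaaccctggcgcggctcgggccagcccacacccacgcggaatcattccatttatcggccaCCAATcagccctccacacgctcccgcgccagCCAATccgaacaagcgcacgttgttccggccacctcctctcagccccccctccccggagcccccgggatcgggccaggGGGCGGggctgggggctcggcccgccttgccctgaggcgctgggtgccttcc
TM7SF2: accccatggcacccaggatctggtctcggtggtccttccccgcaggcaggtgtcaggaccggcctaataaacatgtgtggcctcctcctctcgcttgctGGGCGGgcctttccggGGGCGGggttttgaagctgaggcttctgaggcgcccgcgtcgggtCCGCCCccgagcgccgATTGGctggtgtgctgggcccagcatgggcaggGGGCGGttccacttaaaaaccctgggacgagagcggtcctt
HSD17B7: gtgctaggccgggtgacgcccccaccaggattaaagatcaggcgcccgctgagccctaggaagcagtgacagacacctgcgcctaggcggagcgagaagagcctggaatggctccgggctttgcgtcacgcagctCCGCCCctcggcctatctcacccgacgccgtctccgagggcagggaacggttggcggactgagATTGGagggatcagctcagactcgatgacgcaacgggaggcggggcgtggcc
IDI1: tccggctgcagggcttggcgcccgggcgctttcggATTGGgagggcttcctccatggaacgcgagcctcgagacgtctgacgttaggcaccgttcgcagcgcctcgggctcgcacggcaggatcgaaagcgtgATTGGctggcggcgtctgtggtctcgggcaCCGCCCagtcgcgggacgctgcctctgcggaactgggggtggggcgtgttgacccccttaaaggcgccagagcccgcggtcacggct
INSIG1: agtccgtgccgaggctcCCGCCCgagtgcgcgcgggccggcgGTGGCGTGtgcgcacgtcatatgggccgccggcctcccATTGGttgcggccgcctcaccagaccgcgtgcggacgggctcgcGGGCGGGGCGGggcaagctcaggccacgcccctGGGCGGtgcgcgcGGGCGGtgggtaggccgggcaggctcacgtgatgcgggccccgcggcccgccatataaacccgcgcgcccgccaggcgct
INSIG2: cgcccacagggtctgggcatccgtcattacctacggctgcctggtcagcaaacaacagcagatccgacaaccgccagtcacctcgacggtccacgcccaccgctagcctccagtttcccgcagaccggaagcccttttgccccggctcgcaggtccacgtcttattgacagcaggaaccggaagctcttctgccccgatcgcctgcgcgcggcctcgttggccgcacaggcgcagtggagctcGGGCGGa

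DNAJC2, the targeted gene, was at 51.2, 50.4 and 38.5 CPM in shDNAJC2 cells and at 76.7, 69.8 and 86.5 CPM in shCtrl cells, without overlap. Fitted expression in shDNAJC2 cells came to 60.1% of that in shCtrl cells, with 95% confidence limits of 47.0 and 76.8% and an adjusted p of 0.43 in edgeR. The 6 libraries held 17491462 to 25760291 counts. shCtrl 3 had a control level of DNAJC2 but stood apart from shCtrl 1 and 2 in other genes. The 15 target genes of the stress factor ATF4 averaged 1.02, 1.10 and 0.47 in shDNAJC2 1, 2 and 3, against −1.90, −1.87 and 1.18 in shCtrl 1, 2 and 3, on the log2 scale relative to the mean of the 6 libraries. Without shCtrl 3, 14 of the 15 rose and 1 fell. Values without shCtrl 3 are therefore given beside those over all 6 libraries, a choice made with the data in view. Of 13988 genes tested over all 6, edgeR called 0% lower and 0% higher after adjustment, with 1585 at an unadjusted p under 0.05. DESeq2 called 0.0800% lower and 0.0229% higher of 17494 genes. Without shCtrl 3 edgeR called 17% lower and 17.8% higher. Of 8 kidney epithelial markers, KRT8, KRT18 and CDH2 were at 30.9 to 172 CPM and PAX8 at 2.82 to 4.65 CPM in every library, while PAX2 had at most 1 count in any library. The 8 summed to 231 to 288 CPM in shDNAJC2 and 210.4 to 300.0 CPM in shCtrl libraries, and 1 of them, CDH2, rose by 0.59 without shCtrl 3. Of 6 blood markers 5 stayed under 1 CPM, and the sixth, CD68, a lysosomal protein of macrophages that other cells also express, was at 71.0 to 80.3 CPM in shDNAJC2 and 79.5 to 92.3 CPM in shCtrl libraries. Of 4 endothelial markers CDH5 was at 0 throughout, and PECAM1 and KDR, at most 3.86 CPM, rose without shCtrl 3. Of 6 fibroblast markers 2, COL1A1 and COL1A2, fell without shCtrl 3, and the summed level of the list was 1182 to 1747 CPM in shDNAJC2 and 1310 to 4038 CPM in shCtrl libraries. The part of these differences in the results below was not tested.

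The SREBP2 arm was lower in knockdown cells than in shCtrl 1 and shCtrl 2, and shCtrl 3 was lower still. Its mean level was −0.18, −0.21 and −0.11 in shDNAJC2 1, 2 and 3, against 0.37, 0.40 and −0.27 in shCtrl 1, 2 and 3 (log2 scale, relative to the mean of the 6 libraries). The group means were −0.17 ± 0.047 in shDNAJC2 and 0.17 ± 0.38 in shCtrl (SD, n = 3 each), so the groups overlapped through 1 control library. In bulk RNA, fewer cells with a transcript and less transcript in each cell cannot be told apart. The same 4 libraries were high in ATF4 targets and low in COL1A1, a fibroblast collagen, which was at 572, 623 and 1066 CPM in shDNAJC2 and at 2796, 2785 and 695 CPM in shCtrl libraries. Of the same marker list, COL1A2 followed COL1A1, with a log2 fold change of −1.51 over all 6 libraries. DCN (−0.20), LUM (−0.062) and PDGFRA (0.050) differed less, and THY1 was highest in shCtrl 3, at 290 CPM. The part of ATF4 targets or of fibroblast genes in the level of the arm was not tested.

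The LXR arm had its group means the other way round, at 0.19 ± 0.38 in shDNAJC2 and −0.19 ± 0.56 in shCtrl (SD, n = 3 each), a difference within the spread of the libraries. Its mean level was 0.52, 0.26 and −0.22 in shDNAJC2 1, 2 and 3 and −0.70, −0.27 and 0.41 in shCtrl 1, 2 and 3. shDNAJC2 3 lay near shCtrl 2, and shCtrl 3 lay among the knockdown libraries, so neither group kept to 1 side. The mean gives each gene of the arm the same weight. Among them ABCG1 had only 13 and 32 counts in shCtrl 1 and 2, and MYLIP stayed at 8.04 to 10.3 CPM throughout. The difference between the arms (SREBP2 minus LXR) was −0.71, −0.47 and 0.11 in shDNAJC2 and 1.06, 0.67 and −0.67 in shCtrl libraries. The difference was positive in shDNAJC2 3, shCtrl 1 and shCtrl 2 and negative in shDNAJC2 1, shDNAJC2 2 and shCtrl 3.

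**Figure D1:**
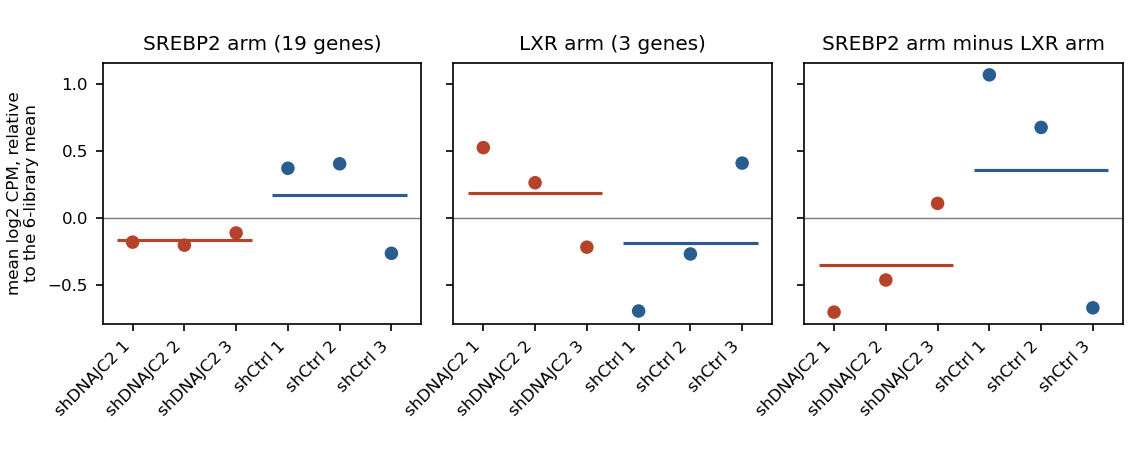
Mean log2 CPM of the 19 SREBP2-arm genes and the 3 LXR-arm genes, and their difference, in each library relative to the mean of the 6 libraries; red points are shDNAJC2, blue points shCtrl, and horizontal lines the group means. In the left panel the shDNAJC2 points lie at −0.18, −0.21 and −0.11, below shCtrl 1 and 2 at 0.37 and 0.40 and above shCtrl 3 at −0.27.

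Gene by gene, 19 of the 19 SREBP2-arm genes had a negative fitted log2 fold change over all 6 libraries, against 52.3% of all tested genes. The middle value was −0.22, while that of all genes was −0.016, and the values ran from −1.04 to −0.0059. PMVK (−0.020) and CYP51A1 (−0.0059) lay close to 0 and turned positive under other settings, PMVK to 0.17 once the trend of each library with GC content was removed and CYP51A1 to 0.0044 with RLE size factors. None of the 19 passed after adjustment. Unadjusted p was under 0.05 for 5 of them, all lower, where 7.33% of all genes were. With the GC trend removed, HSD17B7 alone of these 5 stayed under 0.05 (unadjusted p 0.032 in edgeR). The others were at 0.077 (MVK), 0.12 (MVD), 0.060 (TM7SF2) and 0.11 (LSS), while HMGCS1 came to 0.0497. In shDNAJC2 1, 2 and 3, 16, 17 and 19 of the 19 lay below both shCtrl 1 and shCtrl 2, and in shCtrl 3 it was 17 of 19. The matching shares of all tested genes were not counted. Without shCtrl 3, 11 of the 19 fell and 0 rose, with a median of −0.34, against 17% and 17.8% of all tested genes.

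**Figure D2:**
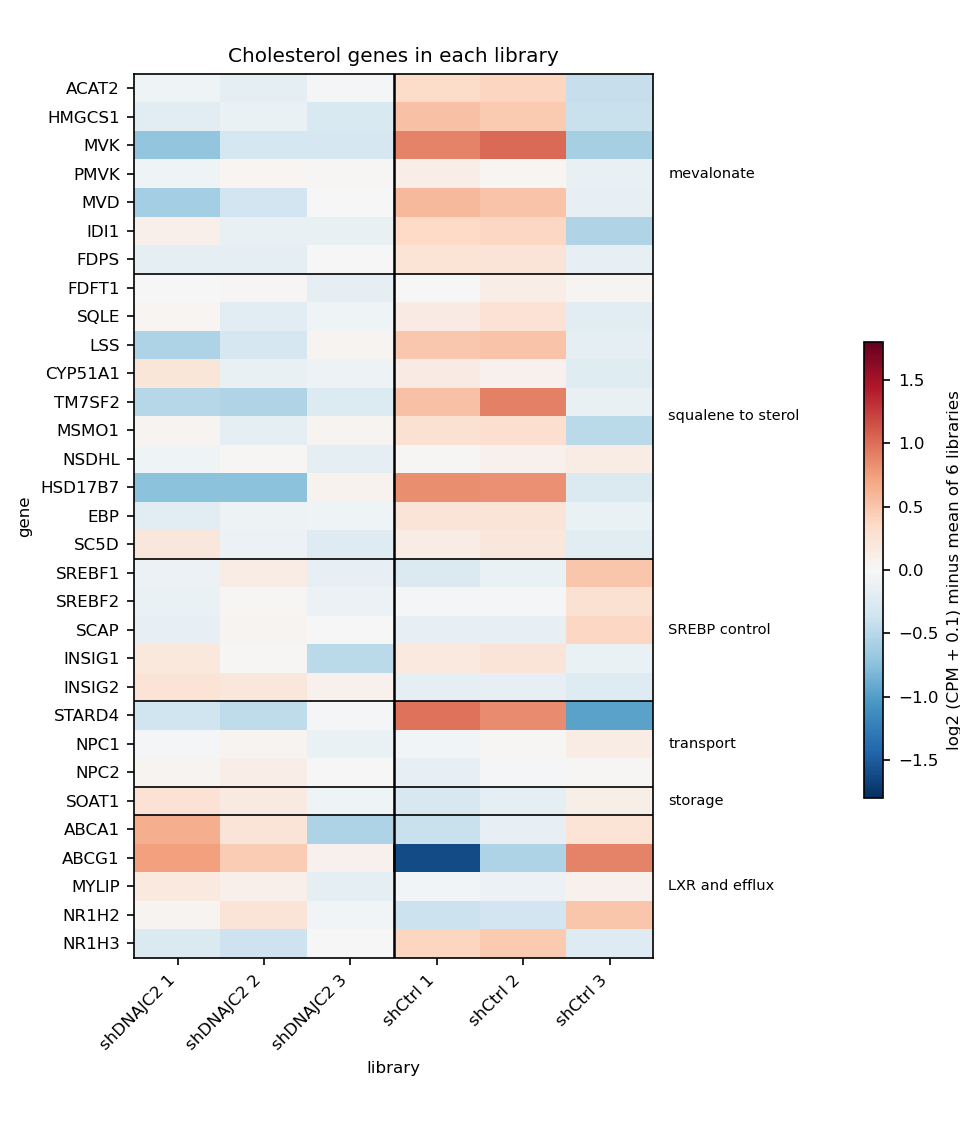
Level of each of the 31 genes in each library, as log2 (CPM + 0.1) minus the mean of the 6 libraries, with shDNAJC2 left of shCtrl and the genes ordered by role; red is higher and blue lower. The upper 2 blocks are redder in shCtrl 1 and 2 than in the other 4 libraries, and MVK, HSD17B7 and, lower down, STARD4 are among the deepest.

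The mevalonate branch, from acetyl-CoA to farnesyl diphosphate, held 7 genes of the set. MVK, the kinase that phosphorylates mevalonate (ENSG00000110921, on GRCh38 at chromosome 12 from 109573255 to 109598117), had 5.17, 6.82 and 6.88 CPM in shDNAJC2 and 15.8, 17.4 and 5.57 CPM in shCtrl libraries. Its 3 knockdown libraries and shCtrl 3 formed a low set, and shCtrl 1 and 2 a high one. The fitted log2 fold change was −1.04 (95% interval −2.02 to −0.055), with an unadjusted p of 0.041 and an adjusted p of 0.43 in edgeR. Without shCtrl 3 MVK fell by 1.39 (adjusted p 6.8e-04), the largest fall of the 31 genes in that fit.

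HMGCS1, which condenses acetyl-CoA with acetoacetyl-CoA to HMG-CoA, was at 20.4, 21.5 and 19.2 CPM in shDNAJC2 and at 33.5, 32.2 and 17.6 CPM in shCtrl libraries. MVD, the decarboxylase that yields isopentenyl diphosphate, was at 13.2, 15.8 and 20.2 CPM in shDNAJC2 and at 30.1, 28.8 and 18.2 CPM in shCtrl libraries. For both genes shCtrl 3 lay with the knockdown libraries, and for HMGCS1 it was the lowest of the 6. Their log2 fold changes were −0.45 (95% interval −1.03 to 0.14) and −0.65 (−1.22 to −0.072). Without shCtrl 3 they fell by 0.69 and 0.84. MVD has a GC content of 63.7%, where the typical tested gene has 48.5%, and with the GC trend removed its log2 fold change over all libraries was −0.41.

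ACAT2, the thiolase that makes acetoacetyl-CoA, was at 63.5, 59.2 and 65.4 CPM in shDNAJC2 and at 84.3, 87.4 and 50.3 CPM in shCtrl libraries. IDI1, which interconverts the isoprene units, was at 47.2, 40.1 and 40.2 CPM in shDNAJC2 and at 56.7, 57.1 and 30.5 CPM in shCtrl libraries. In both, each knockdown library lay below shCtrl 1 and 2 and above shCtrl 3. FDPS, the synthase of farnesyl diphosphate and per length of transcript the highest of the 31 genes (60.2 CPM per kilobase over the 6 libraries), was at 108, 108 and 119.9 CPM in shDNAJC2 and at 143, 141 and 108 CPM in shCtrl libraries. Without shCtrl 3 ACAT2, IDI1 and FDPS fell by 0.45, 0.42 and 0.34. PMVK, which adds a second phosphate to the product of MVK, was at 19.7, 21.5 and 21.2 CPM in shDNAJC2 and at 22.7, 21.5 and 19.1 CPM in shCtrl libraries. The PMVK value of −0.020 had a 95% interval of −0.30 to 0.26, so neighbouring steps of the branch had fitted values of −1.04 and −0.020. Without shCtrl 3, 6 of the 7 genes fell, against 17% of all tested genes. PMVK did not pass (−0.082, adjusted p 0.61 in edgeR).

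In the branch from squalene to cholesterol, 10 genes were measured, and 3 of them had an unadjusted p under 0.05, all lower, as 7.33% of all tested genes were. TM7SF2, a sterol reductase that acts on C14 (ENSG00000149809, chromosome 11, 65111845 to 65116384), was at 3.24, 3.17 and 3.94 CPM in shDNAJC2 and at 6.81, 8.82 and 4.27 CPM in shCtrl libraries. It was 1 of 2 genes of the 31 whose highest shDNAJC2 library stayed under the lowest shCtrl library, as 8.43% of all tested genes did. TM7SF2 had a log2 fold change of −0.94 (95% interval −1.63 to −0.25, unadjusted p 0.015, adjusted p 0.43 in edgeR), and without shCtrl 3 it fell by 1.17. With a GC content of 64.2%, its value over all libraries was −0.69 once the GC trend was removed. It also overlaps VPS51 on the same strand, so some of its reads may be counted from that gene.

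HSD17B7, which reduces the C3 ketone during demethylation (ENSG00000132196, chromosome 1, 162790702 to 162812817), was at 1.57, 1.56 and 2.79 CPM in shDNAJC2 and at 4.84, 4.81 and 2.22 CPM in shCtrl libraries. shDNAJC2 3 and shCtrl 3 lay between the low pair of shDNAJC2 1 and 2 and the high pair of shCtrl 1 and 2. Fitted over all libraries it stood at −0.99 (95% interval −1.93 to −0.054), and without shCtrl 3 it fell by 1.25. It is among the lowest of the set, with 26 to 126 counts a library, and 2 annotated pseudogenes carry its name. LSS, the cyclase that makes lanosterol, was at 34.6, 41.3 and 52.6 CPM in shDNAJC2 and at 71.3, 73.1 and 45.3 CPM in shCtrl libraries. For LSS the fit gave −0.56 (95% interval −1.11 to −0.0095), and without shCtrl 3 it fell by 0.75.

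EBP, the sterol isomerase, was at 30.4, 32.5 and 32.7 CPM in shDNAJC2 and at 40.4, 40.7 and 31.9 CPM in shCtrl libraries, and fell by 0.34 without shCtrl 3. The other 6 genes of this branch did not pass in either comparison. NSDHL, a dehydrogenase of C4 demethylation, was the second gene with each knockdown library below each control, but by a narrow margin, at 27.1, 29.0 and 25.3 CPM in shDNAJC2 and at 29.1, 30.3 and 31.4 CPM in shCtrl libraries. Here shCtrl 3 was the highest of the 6. The fitted difference was −0.16 (95% interval −0.41 to 0.094), and −0.13 without shCtrl 3.

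FDFT1, which joins farnesyl units into squalene, was at 94.3, 95.8 and 84.3 CPM in shDNAJC2 and at 94.5, 103 and 98.0 CPM in shCtrl libraries. SQLE, the next enzyme, an epoxidase, was at 40.0, 34.2 and 36.9 CPM in shDNAJC2 and at 43.2, 46.6 and 34.1 CPM in shCtrl libraries. Neither separated the groups, with log2 fold changes of −0.11 (95% interval −0.34 to 0.13) and −0.16 (−0.50 to 0.19), and of −0.11 and −0.27 without shCtrl 3. CYP51A1, the lanosterol demethylase, was at 50.9, 40.1 and 41.4 CPM in shDNAJC2 and at 48.8, 46.6 and 37.6 CPM in shCtrl libraries. MSMO1, the C4 methyl oxidase, was at 21.5, 18.4 and 21.5 CPM in shDNAJC2 and at 25.2, 25.7 and 14.9 CPM in shCtrl libraries. SC5D, the C5 desaturase, was at 25.0, 20.3 and 18.6 CPM in shDNAJC2 and at 23.9, 25.1 and 18.9 CPM in shCtrl libraries. For CYP51A1 and MSMO1 shCtrl 3 was the lowest library, and the 95% intervals of these 3 genes ran from −0.63 at the lowest to 0.43 at the highest. Without shCtrl 3 CYP51A1 was at −0.11, MSMO1 at −0.31 and SC5D at −0.20. Reads of CYP51A1 and FDPS may be shared with 3 and 8 pseudogenes named after them.

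**Figure D3:**
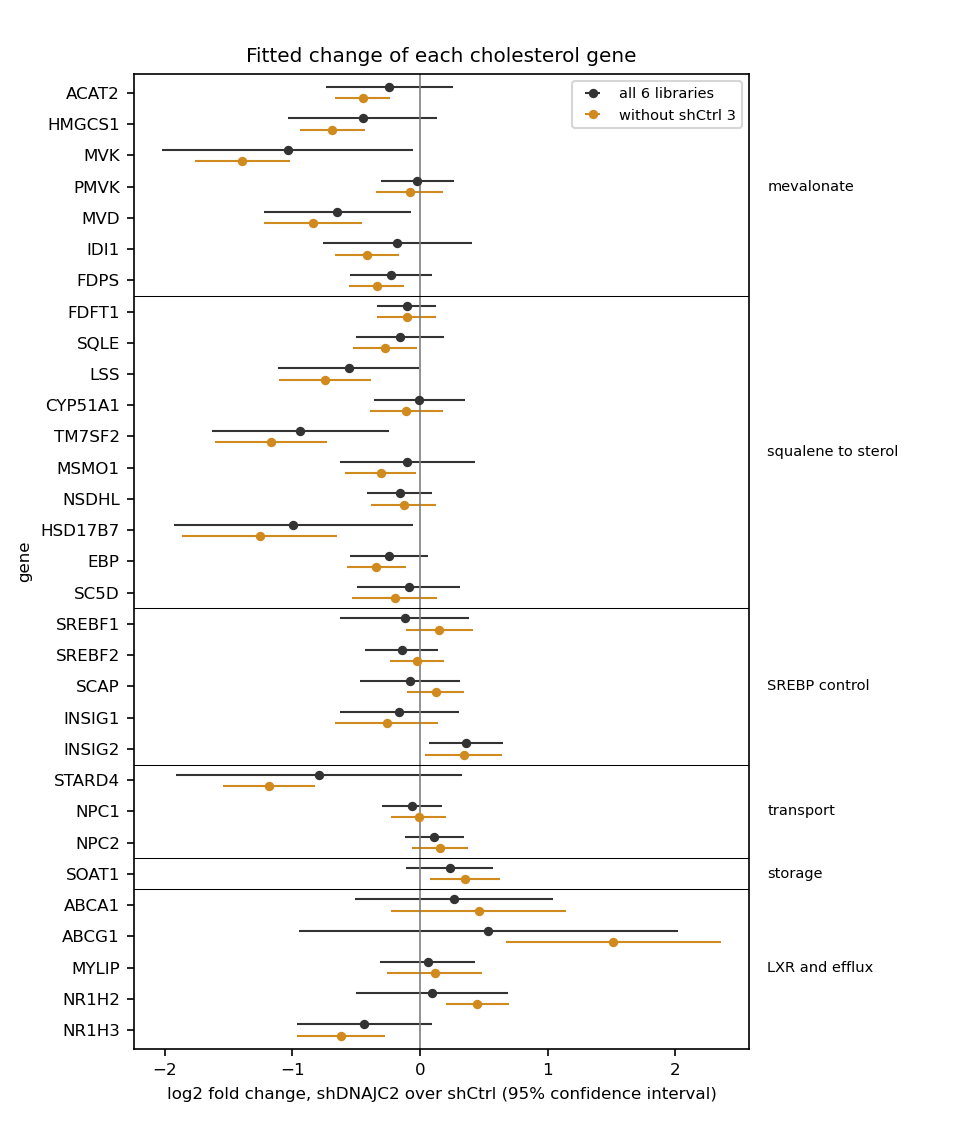
Fitted log2 fold change of shDNAJC2 over shCtrl for each of the 31 genes with its 95% confidence interval, over all 6 libraries (dark) and without shCtrl 3 (orange), with the genes ordered by role. The orange values of MVK, TM7SF2, HSD17B7 and STARD4 lie between −1.39 and −1.17, while the values of SREBF2 and NPC1 stay near 0 in both.

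None of the genes that control SREBP processing was called in either comparison. SREBF2, the gene of SREBP2, was at 92.7, 102 and 94.0 CPM in shDNAJC2 and at 98.4, 98.4 and 123 CPM in shCtrl libraries. SCAP was at 80.3, 92.4 and 89.2 CPM in shDNAJC2 and at 80.4, 80.6 and 115 CPM in shCtrl libraries. SREBF1, the gene of the related SREBP1, which favours fatty acid genes, was at 70.7, 83.3 and 68.6 CPM in shDNAJC2 and at 63.7, 70.2 and 108 CPM in shCtrl libraries. In each of the 3 genes shCtrl 3 was the highest library, and the other controls lay among or near the knockdown values. Log2 fold changes were −0.14 (95% interval −0.43 to 0.14) for SREBF2, −0.077 (−0.47 to 0.32) for SCAP and −0.12 (−0.63 to 0.38) for SREBF1. The signs of all 3 turned with the GC trend removed, to 0.0027, 0.16 and 0.13, and without shCtrl 3 those of SCAP and SREBF1 were 0.12 and 0.15 and that of SREBF2 −0.027. With both changes at once SCAP rose by 0.33 and SREBF1 by 0.37 (adjusted p 0.013 and 0.041).

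The INSIG genes, which encode the paired retention proteins of the endoplasmic reticulum, had fitted values of opposite sign. INSIG2 (ENSG00000125629, chromosome 2, 118088452 to 118110997) was at 15.4, 15.0 and 13.8 CPM in shDNAJC2 and at 11.5, 11.8 and 11.1 CPM in shCtrl libraries. Alone among the 31 genes its lowest shDNAJC2 value exceeded its highest shCtrl value, as it did in 7.33% of all tested genes, and shCtrl 3 was close to shCtrl 1 and 2. INSIG2 had a log2 fold change of 0.36 (95% interval 0.070 to 0.65, unadjusted p 0.022, adjusted p 0.43 in edgeR), and it was 0.34 without shCtrl 3 (adjusted p 0.075). It was the only gene of the set that was higher at an unadjusted p under 0.05, where 4% of all genes were. INSIG2 has a GC content of 35.4%, and with the GC trend removed its value was 0.19 (unadjusted p 0.13). INSIG1, itself a target of SREBP2, was at 43.6, 39.0 and 27.2 CPM in shDNAJC2 and at 43.1, 44.8 and 35.1 CPM in shCtrl libraries, which came to −0.16 on the log2 scale (95% interval −0.63 to 0.30). Its lowest library was shDNAJC2 3, without which the value was 0.028, and without shCtrl 3 it was −0.26.

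Among the carriers inside the cell, STARD4 had a larger difference than the lysosomal pair. STARD4, a cytosolic sterol carrier regulated by SREBP2 (ENSG00000164211, chromosome 5, 111496033 to 111512590), was at 8.40, 7.78 and 10.5 CPM in shDNAJC2 and at 21.3, 19.4 and 5.44 CPM in shCtrl libraries. shCtrl 3 lay below every knockdown library, and the other controls above them all. The fit gave −0.79 (95% interval −1.91 to 0.33), and without shCtrl 3 it fell by 1.18. Its GC content is low, at 34.2%, and with the GC trend removed its value over all libraries was −0.93.

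NPC1 and NPC2, which pass cholesterol taken up in lipoproteins out of the lysosome, varied little across libraries. NPC1 was at 135, 141 and 127 CPM in shDNAJC2 and at 132, 138 and 149.6 CPM in shCtrl libraries (fitted log2 value −0.063, 95% interval −0.30 to 0.17). NPC2 was at 72.1, 75.4 and 69.4 CPM in shDNAJC2 and at 62.5, 67.7 and 70.3 CPM in shCtrl libraries (fitted log2 value 0.11, 95% interval −0.12 to 0.34). Without shCtrl 3 the values were −0.0095 for NPC1 and 0.15 for NPC2. SOAT1, which esterifies cholesterol for storage in droplets, was at 93.7, 88.0 and 74.2 CPM in shDNAJC2 and at 63.9, 69.8 and 84.2 CPM in shCtrl libraries. It rose by 0.35 without shCtrl 3 (adjusted p 0.049), and over all libraries its value was 0.23 (95% interval −0.11 to 0.57). With the GC trend removed and shCtrl 3 left out it did not pass (0.27, adjusted p 0.074).

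**Figure D4:**
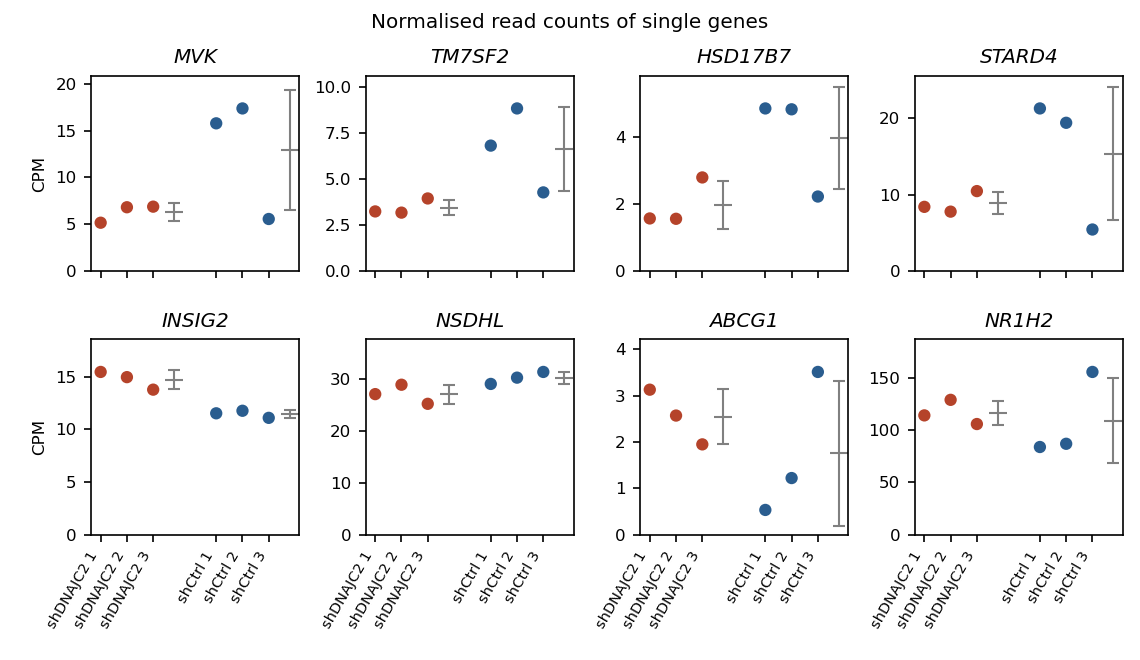
CPM of 8 genes in each library, shDNAJC2 in red and shCtrl in blue, with grey bars giving the mean and SD of each group (n = 3 each). shCtrl 3 lies among the red points for MVK and HSD17B7, beyond them for STARD4, ABCG1 and NR1H2, and with the other blue points for INSIG2 and NSDHL.

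On the efflux side the pump genes were of low abundance, at 0.620 (ABCG1) and 1.09 (ABCA1) CPM per kilobase of transcript over the 6 libraries. ABCG1, which exports cholesterol to lipoproteins (ENSG00000160179, chromosome 21, 42199689 to 42297244), was at 3.13, 2.57 and 1.95 CPM in shDNAJC2 and at 0.533, 1.22 and 3.51 CPM in shCtrl libraries. Its highest library was shCtrl 3 and its lowest shCtrl 1, so the controls spanned the knockdown values. For ABCG1 the fitted value was 0.54 (95% interval −0.95 to 2.02), and without shCtrl 3 it rose by 1.51 (adjusted p 0.015). ABCA1, the pump that loads apolipoprotein A-I, was at 17.2, 12.9 and 7.40 CPM in shDNAJC2 and at 8.24, 9.85 and 13.0 CPM in shCtrl libraries. The 3 knockdown libraries of ABCA1 spread more widely than the controls, with 1 above and 1 below all of them, and the log2 fold change of 0.27 (95% interval −0.51 to 1.04) turned to −0.035 without shDNAJC2 1. MYLIP, a ubiquitin ligase that sends lipoprotein receptors to degradation, was at 10.3, 9.69 and 8.04 CPM in shDNAJC2 and at 8.81, 8.48 and 9.62 CPM in shCtrl libraries (0.059 on the log2 scale, 95% interval −0.31 to 0.43). Without shCtrl 3 ABCA1 was at 0.46 and MYLIP at 0.11, and neither passed (adjusted p 0.26 and 0.61 in edgeR).

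The LXR genes themselves moved in opposite directions once shCtrl 3 was left out. NR1H2, the gene of the widely expressed LXRbeta, was at 114, 129 and 106 CPM in shDNAJC2 and at 83.8, 86.8 and 156 CPM in shCtrl libraries. NR1H3, the gene of LXRalpha, was at 10.1, 9.33 and 12.2 CPM in shDNAJC2 and at 15.9, 16.8 and 10.3 CPM in shCtrl libraries. shCtrl 3 lay above the knockdown values of NR1H2 and among those of NR1H3. With all 6 libraries the fit gave 0.096 (95% interval −0.50 to 0.69) for NR1H2 and −0.44 (−0.96 to 0.094) for NR1H3. Without shCtrl 3 NR1H2 rose by 0.45 and NR1H3 fell by 0.62 (adjusted p 0.015 each).

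Over the whole set, without shCtrl 3, 12 of the 31 genes fell and 3 rose, against 17% and 17.8% of all tested genes, and 16 did not pass. The 12 were 11 genes of the SREBP2 arm and NR1H3. The 3 were SOAT1, ABCG1 and NR1H2. With the GC trend removed as well, 14 fell and 4 rose, against 17.3% and 20.3% of all genes. SQLE and MSMO1 then joined those that fell, SCAP and SREBF1 joined those that rose, and SOAT1 left them. Set against shCtrl 3 alone, the 3 knockdown libraries were all higher in 8 of the 19 SREBP2-arm genes, all lower in 3 and on both sides in 8, where 28.3% of all tested genes were all higher and 29.8% all lower. shCtrl 3 was the lowest of the 6 libraries in 8 of the 19, against 21.7% of all genes. Over all 31 genes it was the lowest in 9 and the highest in 7, the second against 22.8% of all genes.

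Another 37 genes of sterol handling, none of them among the 31, gave the wider setting, and 34 of these were tested. Over all 6 libraries 0 passed after adjustment, 3 were lower and 3 higher at an unadjusted p under 0.05, against 7.33% and 4% of all tested genes, and the median log2 fold change was 0.060. PLTP, a phospholipid transfer protein and LXR target, was at 42.4, 45.9 and 40.2 CPM in shDNAJC2 and at 50.7, 59.3 and 53.3 CPM in shCtrl libraries (log2 fold change −0.35, unadjusted p 0.017). RXRA (−0.26), the gene of a partner receptor of the LXRs, was lower, while RNF139 (0.42), a ubiquitin ligase of the endoplasmic reticulum, LRP8 (0.51), a lipoprotein receptor, and TMEM97 (0.33), a binding partner of NPC1, were higher. PLTP and RXRA are rich in GC, and with the GC trend removed their values were −0.15 and −0.052.

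Without shCtrl 3, 5 of the 34 fell and 10 rose, against 17% and 17.8% of all tested genes. ERG28, a scaffold of sterol C4 demethylation, fell by 0.65, and CYP27A1, which makes an oxysterol, by 0.74. VLDLR, a lipoprotein receptor that is also an ATF4 target, rose by 4.05, at 67.1, 66.2 and 40.4 CPM in shDNAJC2 and at 3.28, 3.70 and 64.7 CPM in shCtrl libraries. AUP1, a factor of endoplasmic reticulum degradation, rose by 0.69. shCtrl 3 lay among the knockdown libraries for VLDLR and above them for AUP1, and fits with all 6 libraries gave 1.28 (95% interval −1.31 to 3.86) and 0.27.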

How the data were processed

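Per the labels' protocols, mRNA was enriched and read from both ends on an Illumina instrument. The authors deposited counts for each gene, not normalized, as the values show (whole numbers, library totals that differ). The submitters' processing notes name GRCh38 (hg38). Aligner, counter and strand setting are not given in the sources used here, so reads of overlapping genes cannot be told apart: 17 of the 31 genes are overlapped on the opposite strand.

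The tests used edgeR 4.0.16 under R 4.3.3 (quasi-likelihood F test, two-sided, TMM, filterByExpr, Benjamini-Hochberg over all tested genes, threshold 0.05), with group as the only term. Log2 CPM used a prior count of 2. Alternatives were DESeq2 1.42.0, limma-voom 3.58.1, other size factors and filters, a loess GC correction (span 0.3), a replicate block and leaving out each library. Scripts were tested on simulated counts. Coordinates, lengths and GC content come from the longest GENCODE 29 transcripts. A count of 0 allows up to 3 counts, 0.115 to 0.179 CPM, for counting error only. A two-sided exact permutation test for DNAJC2 gave p = 0.1, the smallest possible with 3 against 3.

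All 31 genes and DNAJC2 are named. From the 37 other sterol genes up to 3 in each direction with the smallest p and a mean of at least 1 CPM are named, in each of the 2 comparisons. Some genes that this rule or the marker lists hold are not reported here. The marker genes named, COL1A1 among them, were chosen after their values were seen. Members and lists were chosen with earlier results of these data known.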

Additional observations from a re-analysis of the deposited data

How the results depend on the processing

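Over all 6 libraries 0 of the 31 genes passed under any size factor, filter or tool tried. Unadjusted p was under 0.05 for 3 to 6 of them (2 with the GC trend removed). Over all genes DESeq2 called 18. It gave no adjusted p for 5 of the 31 (MVK, TM7SF2, HSD17B7, ABCG1 and MYLIP), so it could not call these. Leaving out each library in turn gave 0 to 4945 calls over all genes, 0 to 15 of the 31 genes and 0 to 15 of the 37 other sterol genes, and each highest count came from leaving out shCtrl 3. With the GC trend removed as well, an alternative chosen after seeing the data, 5265 genes and 18 of the 31 were called. DNAJC2 passed with DESeq2 (−0.72, adjusted p 0.0496) and without shCtrl 3, with values from −0.81 to −0.60 as libraries were left out. The median of the SREBP2 arm stayed negative, at −0.34 to −0.14 with a library left out and −0.28 to −0.20 in the other fits of all 6 libraries. That of the LXR arm ran from −0.017 (without shDNAJC2 1) to 0.55, and the difference between the arms from −0.80 to −0.23.

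Signs turned for members near 0. With the GC trend removed PMVK was at 0.17, SREBF1 at 0.13, SREBF2 at 0.0027 and SCAP at 0.16, and without shCtrl 3 as well at 0.096, 0.37, 0.11 and 0.33. CYP51A1 was at 0.0044 with RLE factors, 0.0039 without a filter and 0.0071 with DESeq2. With 1 library left out the ranges were −0.082 to 0.048 for PMVK, −0.12 to 0.081 for CYP51A1, −0.31 to 0.039 for MSMO1, −0.22 to 0.018 for SC5D, −0.25 to 0.15 for SREBF1, −0.15 to 0.12 for SCAP, −0.31 to 0.028 for INSIG1, −0.035 to 0.55 for ABCA1, −0.017 to 0.17 for MYLIP and −0.049 to 0.45 for NR1H2. The cause of these turns was not tested. Deviations from the group mean correlated at −0.38, −0.52 and −0.66 between same-numbered libraries, and at −0.58 to 0.67 between differently numbered ones. Because shCtrl 3 stood apart within its group, these values cannot show whether replicate numbers pair the libraries. With a replicate block 0 genes passed in edgeR (439 at an unadjusted p under 0.05), 0 of the 31 had an unadjusted p under 0.05, and the medians of the arms were −0.20 and 0.22. Depth limits the precision of HSD17B7, with 26 to 126 counts a library, and ABCG1, with 13 to 84.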
